A study of Rattus norvegicus with 12 samples.

Results

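The 354 genes described here are those that the authors' deposited table marked as different between HG, cells kept in 100 mM glucose, and Ctrl, cells kept in 5.5 mM glucose. They are the rows of that table, out of 20263 genes in the deposited tables of the series, and 95 were higher and 259 lower in HG. The mark was tested on the file: in all 354 rows the authors' unadjusted p-value was under 0.05 and their fold change over 1.5. The list was thus chosen on the contrast it describes, and the HG and Ctrl values below are a description with no test of their own.

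The labels give the cells as H9C2 cardiomyocytes, H9C2 being an established line from the embryonic heart of the rat. They were wild type in all groups, and each of the 4 groups had 3 libraries labelled as independent biological replicates. HG and Ctrl received no drug. A further pair of groups was kept in 100 mM glucose: HG-Res with 5 µM resveratrol, a plant polyphenol, and HG-Res-SIRT7-Inh with 5 µM resveratrol and 5 µM SirReal2. The labels call SirReal2 specific for SIRT7, a deacetylase of the sirtuin family, while suppliers list it against SIRT2. All cells were collected after 48 h. The labels describe no group with an osmotic control for the added glucose, and no group with the inhibitor alone.

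Medium with a high glucose concentration is used in cultured heart cells as a model of the glucose load in diabetes. Raised glucose feeds glycolysis and its side branches, is sensed by glucose-responsive transcription factors, and, at a high concentration, also raises the osmolarity of the medium. The 354 identifiers carry ENSG, Ensembl's prefix for human genes, while the labels give rat, and 0 of 354 matched the rat gene table at hand (RefSeq, assembly GRCr8). All 20263 identifiers of the series carry that prefix. Whether the reads came from rat or human cells was not settled here, so the species and the cell line rest on the labels alone. No file used here pairs these identifiers with symbols, so genes are given by identifier, at most 2 that rose and 2 that fell per comparison, and gene groups, cell type markers and promoter sequences were not analysed here. Levels are in CPM, a gene's share of the reads of its library, with no correction for gene length. Where levels of different genes are set side by side below, they are shares of reads and also depend on gene length. The depth, recovered from the step between low values, was 30300000 to 33200000 reads, so that 1 CPM stood for 30.3 to 33.2 reads. Among the high-glucose libraries, replicate 2 of HG and replicate 3 of HG-Res-SIRT7-Inh stood apart most from their own groups: over genes with more than 1 CPM in the 2 libraries together, the median chi-square between replicates was 3.37 times that of sampling alone for the other HG pair and 13.2 and 21.1 times for the pairs with HG replicate 2. It was 9.09 times for the other HG-Res-SIRT7-Inh pair and 71.8 and 35.5 times for the pairs with its replicate 3.

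More of the listed genes were lower in high glucose than were higher, and most listed changes were below 2-fold. Among the 259 lower genes the median log2 fold change in the authors' deposited table was -0.82, and among the 95 higher genes it was 0.84. Changes of at least 2-fold made up 124 of the 354, 35 higher and 89 lower. The genes at the limits of the mark had a p-value of 0.0498 and an absolute log2 fold change of 0.585. Close to these limits, 23 genes had a p-value over 0.04 and 68 an absolute log2 fold change under 0.65, and genes outside them are not analysed here. Summed over the 259 lower genes, the libraries held 5333 to 5401 CPM in Ctrl and 2783 to 2977 CPM in HG. The 95 higher genes summed to 2650 to 2678 CPM in Ctrl and 3982 to 4333 CPM in HG. A single gene made up 46.2% to 48.9% of that sum in Ctrl and 47.5% to 50.7% in HG, and without it the sums were 1369 to 1433 CPM and 1965 to 2273 CPM. Neither sum overlapped between the groups, and together the list took 0.798% to 0.808% of the reads in Ctrl and 0.696% to 0.712% in HG.

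**Figure D1:**
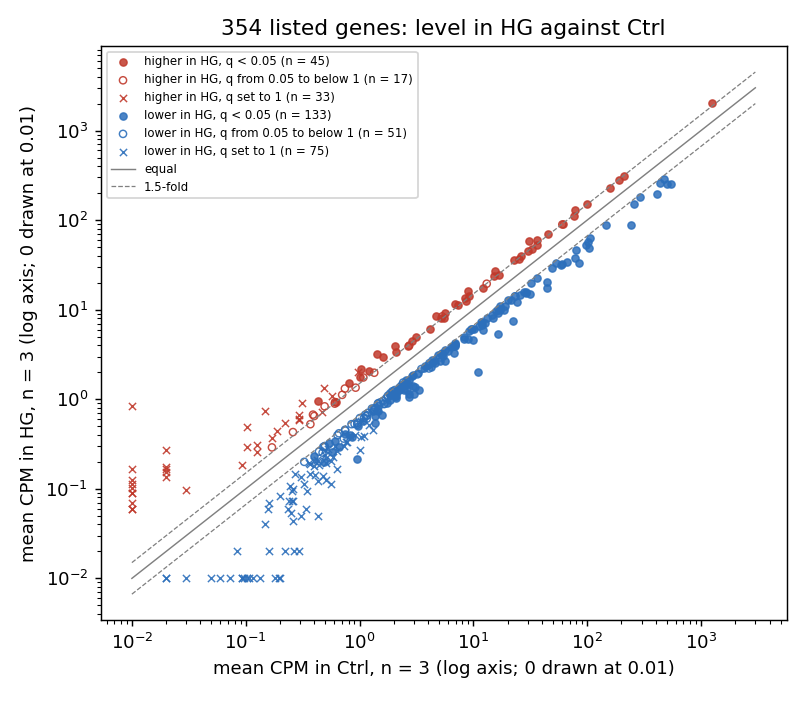
Mean CPM of each of the 354 listed genes in HG (vertical axis) against Ctrl (horizontal axis), both on log axes with means of 3 libraries and values of 0 drawn at 0.01; colour gives the direction and the symbol the q-value class of the authors' deposited table. Genes with q-values under 0.05 follow the 1.5-fold lines closely at high levels, and the crosses, with q-values of 1, gather at low levels.

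Listed changes were larger in genes of low level, a trend that the mark itself can set, since a gene with few reads reaches a p-value under 0.05 only with a large fold, so nothing is read from it. In the 16 genes whose higher group averaged at most 0.1 CPM, about 3 reads per library, the median absolute log2 fold change in the authors' deposited table was 4.06, and all 16 were listed at 2-fold or more. It was 1.19 in the 119 genes from 0.1 to 1 CPM, 0.73 in the 134 genes from 1 to 10 CPM, 0.70 in the 66 genes from 10 to 100 CPM and 0.69 in the 19 genes over 100 CPM. Only 4 of those 19 changed at least 2-fold. The median HG level was 1.12 CPM over the listed genes and 4.68 CPM over all 20263, in a group where 259 of the 354 were chosen for being low. In HG, 35.3% of the listed genes lay between 0.1 and 1 CPM, against 10.5% of all genes. Fewer listed genes lay at the bottom: 4.24% were at 0 and 7.91% above 0 and up to 0.1 CPM, against 21.3% and 9.21% of all genes.

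At the low end, 15 listed genes were at 0 in all 3 HG libraries and 8 were at 0 in all 3 Ctrl libraries. A count of 0 allows up to 3 reads per library, at most 0.0964 CPM in an HG library and 0.0947 CPM in a Ctrl library, which covers counting error only. Of the 15, 8 had a Ctrl mean above the HG floor, the highest 0.2 CPM (SD 0.096), 2.07 times that floor. Of the 8 at 0 in Ctrl, 4 had an HG mean above the Ctrl floor, the highest 0.843 CPM (SD 0.483), 8.91 times that floor. These ratios leave out the error of the means, so they are not lower limits of the change. All 23 had a q-value of 1 in the authors' deposited table.

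The q-values split the list into 3 classes. In the authors' deposited table, 178 genes had a q-value under 0.05, 45 higher and 133 lower in HG, and 68 had a q-value from 0.05 to below 1. Over all genes adjusted by the authors, at least 7.71% had a q-value under 0.05, as recovered below, and nothing is read from the count of 178 since the list was chosen on this contrast. The other 108 had a q-value of exactly 1 beside a p-value under 0.05. These 108 were low genes, with a median of 0.305 CPM in the higher group against 8.36 CPM for the 178, and 95 of them were listed at 2-fold or more. Of the 178 genes, 29 changed at least 2-fold, 4 higher and 25 lower. In the 3 tables that hold all genes, every gene counted in the adjustment had a q-value below 1, and 36 to 80 genes per table had a p-value under 0.05 and a q-value of 1, so a q-value of 1 there marks a gene left out of the adjustment.

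How many genes outside the list changed with glucose could be recovered from the list itself. A q-value of the Benjamini-Hochberg kind equals the p-value times the number of genes adjusted, divided by the rank of the gene's p-value. The gene of smallest p-value gave 12432 genes adjusted, and 192 of the 246 listed genes with a q-value below 1 then gave a whole rank, within 1e-06. Applied to the 3 tables of all genes, the same arithmetic gave a whole rank for 7672, 6982 and 5871 genes, and all of these equalled the true rank. The last listed gene with a q-value under 0.05 had rank 959 and the next one rank 984, so between 959 and 983 genes passed, at least 7.71% of those adjusted. The 178 listed genes were 18.1% to 18.6% of them. The remaining 781 to 805 genes are not in the table, whose rows all changed by more than 1.5-fold.

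The strongest p-values belonged mostly to listed genes, and the weaker ones mostly did not. All of the first 10 ranks were on the list, at least 43 of the first 50, 65 of the first 100 and 122 of the first 400. In the authors' deposited table of HG-Res against HG, 245 of 1091 genes with a q-value under 0.05, 22.5%, changed over 1.5-fold. In that of HG-Res-SIRT7-Inh against HG-Res the share was 77.3%, 885 of 1145 genes. These shares were not tested against each other.

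**Figure D2:**
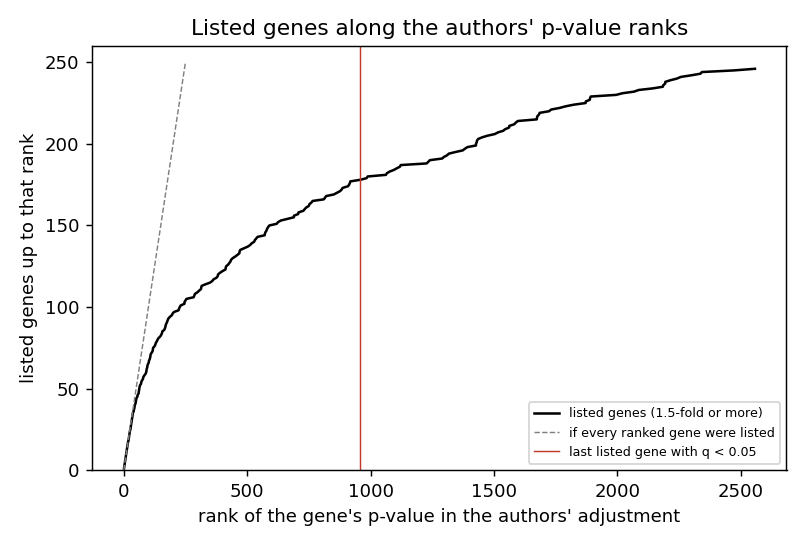
Number of listed genes (vertical axis) up to each p-value rank in the authors' adjustment of HG against Ctrl (horizontal axis), for the 246 listed genes with a q-value below 1; ranks that did not come out whole are upper limits. The curve leaves the dashed line of equality early and reaches 178 at the red line, rank 959.

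The authors' fold changes were not plain ratios of the deposited values. For the 246 genes of the list whose q-value was below 1, the authors' log2 fold change exceeded the log2 ratio of mean CPM by a median of 0.07, a shift toward HG. On the ratio of mean CPM, all 259 lower genes and 71 of the 95 higher genes were past 1.5-fold, and each of the 354 kept its direction. The share of higher genes was 26.8% on the authors' scale and 21.5% among those past 1.5-fold on the CPM scale. Genes that would enter the list on the CPM scale are not analysed here.

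The mark favours genes whose replicates lie close, and the added 1 narrows the spread of low genes, so the spread of the list is given as a description. The median SD between libraries on the log2(CPM + 1) scale was 0.08 in Ctrl and 0.10 in HG, and 0.06 in HG without replicate 2. The HG and Ctrl values did not overlap in 331 of the 354 genes, 78 of the 95 higher and 253 of the 259 lower. Since Ctrl is held for the marked rows alone, no share over other genes can be set beside that count. All 133 lower genes with a q-value under 0.05 were free of overlap, and 41 of the 45 higher ones.

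Over the whole list, HG replicate 2 differed less from Ctrl than the other HG libraries did. Over the 95 higher genes its median difference from the Ctrl mean, on the log2(CPM + 1) scale, was 0.28, beside 0.46 and 0.49 in HG replicates 1 and 3. Over the 45 of them with a q-value under 0.05 it was 0.56, beside 0.61 and 0.56, so that the gap to replicate 3 was not seen there. Over the 259 lower genes it was -0.42, beside -0.49 and -0.50, and over the 133 with a q-value under 0.05 it was -0.59, beside -0.69 and -0.70. It was the HG library nearest the Ctrl mean in 45 of the 95 higher genes and 122 of the 259 lower genes, while replicate 1 was nearest in 15 and 48 and replicate 3 in 31 and 65. Without HG replicate 2, 324 of the listed genes had a ratio of mean CPM over 1.5, against 330 with it.

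The genes printed for this contrast are, in each direction, the 2 with the largest change in the authors' deposited table at a q-value under 0.05, with 1 CPM or more on average in the group where they were higher and with no overlap of replicates. These limits were met by 39 higher and 122 lower genes. ENSG00000139269 was at 10.89, 11.15 and 11.12 CPM in Ctrl and at 1.95, 2.71 and 1.35 CPM in HG. All 3 HG libraries lay far below all 3 Ctrl libraries, and the authors' deposited table gave a log2 fold change of -2.39 with a q-value of 2.56e-21, rank 9 of the 12432. ENSG00000128165 was at 17.01, 16.88 and 15.76 CPM in Ctrl and at 4.53, 6.12 and 5.53 CPM in HG, again without overlap. Its log2 fold change in the authors' deposited table was -1.55 with a q-value of 4.39e-24, rank 6.

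Under the same limits, the 2 largest rises were smaller as fold changes than the 2 largest falls. ENSG00000116701 was at 1.67, 1.54 and 1.10 CPM in Ctrl and at 3.62, 3.05 and 3.02 CPM in HG. The 3 HG libraries lay above the 3 Ctrl libraries, and the log2 fold change in the authors' deposited table was 1.22 with a q-value of 3.58e-05, rank 152. ENSG00000183114 was at 0.85, 1.23 and 1.04 CPM in Ctrl and at 2.17, 2.68 and 1.74 CPM in HG. The groups did not overlap, and the log2 fold change in the authors' deposited table was 1.14 with a q-value of 0.00366.

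**Figure D3:**
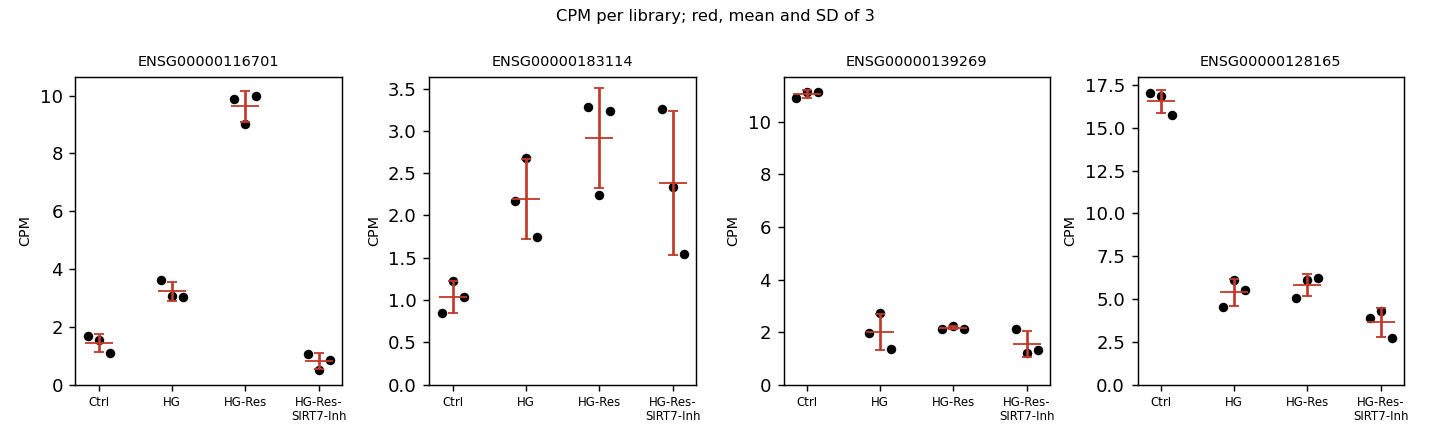
CPM of 4 listed genes (vertical axes, each from 0) in every library of the 4 groups; black points are the 3 libraries and red marks the mean and SD. The 2 genes on the right stay low in all 3 high-glucose groups, and the gene on the left rises further in HG-Res and ends at 0.51 to 1.06 CPM in HG-Res-SIRT7-Inh.

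The same genes were then followed in the other high-glucose groups, which have values for all 354. The 95 genes higher in HG, called raised genes below, had a median near that of Ctrl in HG-Res-SIRT7-Inh. The 259 lower in HG, called lowered genes, had medians below Ctrl in HG-Res and HG-Res-SIRT7-Inh. The Ctrl libraries that set this baseline also chose the list, and lowered genes were chosen for a high Ctrl. A distance below Ctrl can thus come in part from that choice, so nothing is read from it. The median difference of the raised genes from the Ctrl mean, on the log2(CPM + 1) scale, was 0.48, 0.47 and 0.39 in the HG-Res libraries and 0.00, 0.01 and 0.01 in the HG-Res-SIRT7-Inh libraries. That of the lowered genes was -0.44, -0.45 and -0.43 in HG-Res and -0.32, -0.38 and -0.48 in HG-Res-SIRT7-Inh. The middle 50% of the raised genes lay from -0.25 to 0.22 in HG-Res-SIRT7-Inh replicate 1, so a median near that of Ctrl does not place each gene there. In Ctrl replicate 1 it lay from -0.05 to 0.06. That library is part of the Ctrl mean, in rows marked for close replicates, so nothing is read from the difference in width. Raised genes with a q-value under 0.05 had medians of 0.90, 0.82 and 0.85 in HG-Res and -0.13, 0.04 and -0.10 in HG-Res-SIRT7-Inh.

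**Figure D4:**
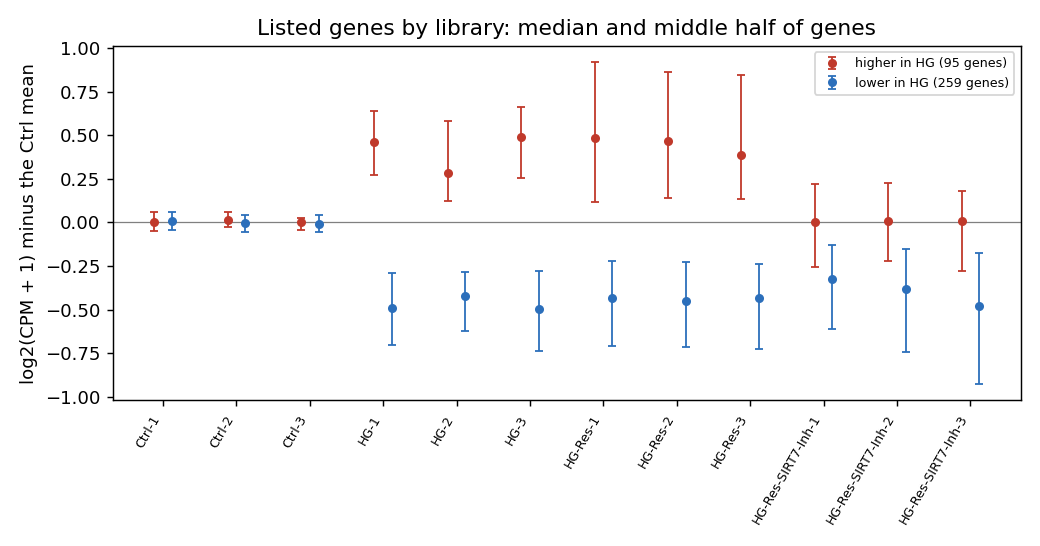
Listed genes in each of the 12 libraries: difference from the Ctrl mean on the log2(CPM + 1) scale (vertical axis), with points for the median and bars for the middle 50 percent of genes, red for the 95 genes higher in HG and blue for the 259 lower. Red points lie at 0.28 to 0.49 in HG and HG-Res and near 0 in HG-Res-SIRT7-Inh; blue points lie at -0.32 or below in all 9 high-glucose libraries.

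The effect of adding SirReal2 to resveratrol can be tested, since neither of those groups was used to choose the list. The HG libraries, which were used, did enter the limit on level and the estimate of spread. The fit took every gene that reached 0.5 CPM in 3 or more of the 9 libraries kept in high glucose, and 72 of the 95 raised and 179 of the 259 lowered genes passed that limit. Of the 251 listed genes tested, 57 changed when the inhibitor was added, 22.7%, where 6.07% of all 12854 genes did. Of the 72 raised genes, 38 fell and 2 rose, in limma with a Benjamini-Hochberg adjusted p under 0.05. That is 52.8% fallen, where 4.19% of all genes tested fell. With HG left out of the fit but kept in the limit on level, 29 fell, 40.3%, where 2.47% of all genes did. The median log2 change of the 72 was -0.59, beside 0.04 over all genes tested. The 38 fell by 0.38 to 2.78 on the log2(CPM + 1) scale, 22 of them at least 2-fold, and 26 ended with a mean below that of Ctrl.

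With no limit on low values all 95 raised genes were tested, and 35 fell, 36.8%, against 3.08% of all 16667 genes. Raised genes with a q-value under 0.05 in the glucose contrast fell in 30 of 45 cases, and those with a higher q-value in 8 of 27. Leaving out HG-Res-SIRT7-Inh replicate 3 gave 37 falls in place of 38, and leaving out HG replicate 2 gave 40, where 5.69% and 4.4% of all genes fell. The count was 24, 25 and 23 without HG-Res replicate 1, 2 or 3, where 1.82%, 1.78% and 1.77% of all genes fell.

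The genes lowered by glucose moved much less with the inhibitor. Of the 179 tested, 11 rose and 6 fell in limma, 6.15% and 3.35%, where 1.88% and 4.19% of all genes tested did. Their median log2 change was -0.01. Both counts changed with the libraries in the fit, and did not simply follow the number of calls over all genes. The 11 rises became 3 and 4 without HG replicate 1 or 3, where 0.809% and 1.29% of all genes rose, and 0, 2 and 1 without HG-Res replicate 1, 2 or 3, where 0.327%, 0.397% and 0.389% did. Leaving out replicate 2 of HG-Res-SIRT7-Inh gave 1, where 0.506% of all genes rose. There were 10 rises without HG replicate 2 or HG-Res-SIRT7-Inh replicate 3, where 2.61% and 3.45% of all genes rose. Without HG-Res-SIRT7-Inh replicate 1 there were 11, 6.15%, where 6.5% of all genes rose, so lowered genes rose no more often there. The 6 falls became 3, 3 and 2 without HG-Res replicate 1, 2 or 3, where 1.82%, 1.78% and 1.77% of all genes fell. In HG-Res-SIRT7-Inh they became 4 when replicate 2 was left out and 18 when replicate 1 was, where 2.2% and 7.33% of all genes fell.

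Among the raised genes, the largest falls with the inhibitor on the log2(CPM + 1) scale were those of ENSG00000135114 and ENSG00000276953. ENSG00000135114 lost that place on scales that compress low genes less: with a pseudocount of 0.1 it changed by -2.82, ENSG00000276953 by -4.08 and ENSG00000116701 by -3.47. ENSG00000135114 was at 44.21, 47.29 and 45.06 CPM in Ctrl, 69.73, 73.69 and 65.03 in HG, 179.91, 190.76 and 186.66 in HG-Res and 32.06, 26.55 and 21.03 in HG-Res-SIRT7-Inh. No 2 groups overlapped, and the order was HG-Res, HG, Ctrl and then HG-Res-SIRT7-Inh. The log2 change with the inhibitor was -2.78 ± 0.14 (SE, limma adjusted p = 6.73e-06). ENSG00000276953 had a q-value of 0.116 for HG against Ctrl in the authors' deposited table, so its rise with glucose did not pass their adjustment. The gene was at 5.11, 5.48 and 5.36 CPM in Ctrl, 9.05, 7.24 and 8.94 in HG, and 8.52, 11.26 and 7.71 in HG-Res. In HG-Res-SIRT7-Inh it was at 0, 1.25 and 1.06 CPM, below all 9 other libraries, a change of -2.59 ± 0.28 from HG-Res (SE, limma adjusted p = 0.000676).

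ENSG00000116701, the largest rise with glucose under the limits above, also fell with the inhibitor. It was at 9.89, 9.01 and 9.97 CPM in HG-Res, above all HG libraries, and at 1.06, 0.51 and 0.86 in HG-Res-SIRT7-Inh, below all Ctrl libraries. The log2 change was -2.56 ± 0.13 (SE, limma adjusted p = 6.73e-06). ENSG00000183114 was at 3.28, 2.24 and 3.23 CPM in HG-Res and at 3.26, 2.34 and 1.55 in HG-Res-SIRT7-Inh, and the groups overlapped (log2 change -0.23 ± 0.20, SE, limma adjusted p = 0.453).

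The 2 listed genes with the largest rises with the inhibitor came from opposite sides of the glucose list. ENSG00000135378, raised by glucose, was at 1.20, 1.32 and 1.13 CPM in Ctrl and 2.61, 1.42 and 2.25 in HG. It was at 3.21, 2.72 and 2.95 in HG-Res and 4.92, 6.97 and 6.77 in HG-Res-SIRT7-Inh, so that each group lay above the one before it. The last step was 0.86 ± 0.17 on the log2 scale (SE, limma adjusted p = 0.0175), and the call was lost without any 1 HG-Res replicate, or when replicate 2 of HG-Res-SIRT7-Inh was left out (highest adjusted p = 0.0815 of 18 alternatives, lowest 3.46e-05). ENSG00000091490, lowered by glucose, was at 14.77, 12.56 and 12.16 CPM in Ctrl, 7.64, 7.93 and 8.71 in HG, 8.72, 9.68 and 10.31 in HG-Res and 15.15, 15.86 and 20.27 in HG-Res-SIRT7-Inh. It rose by 0.77 ± 0.13 with the inhibitor (SE, limma adjusted p = 0.00804) to above every Ctrl library, and the adjusted p was 0.0509 without HG-Res replicate 1, the highest of 18 alternatives (lowest 0.00037).

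ENSG00000139269 and ENSG00000128165, the genes lowered most by glucose within the limits on q-value, level and overlap given above, remained below Ctrl in every library with resveratrol or both compounds. ENSG00000139269 was at 2.13, 2.24 and 2.13 CPM in HG-Res and 2.13, 1.22 and 1.32 in HG-Res-SIRT7-Inh (log2 change -0.33 ± 0.18, SE, limma adjusted p = 0.274). ENSG00000128165 was at 5.06, 6.10 and 6.24 CPM in HG-Res and 3.91, 4.30 and 2.71 in HG-Res-SIRT7-Inh. The groups did not overlap, but the change of -0.56 ± 0.16 did not pass (SE, limma adjusted p = 0.0652; over 18 alternatives 0.0244 to 0.220).

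HG-Res against HG shares the HG libraries with the contrast that chose the list, so its values are set beside the glucose values and nothing is read from their agreement. Of the 251 listed genes tested, 10 passed a limma adjusted p of 0.05, where 0.708% of all 12854 genes did. Of the raised genes, 7 rose and 2 fell, and 1 lowered gene fell, where 0.327% of all genes rose and 0.381% fell. The count was 5 or 6 when any 1 library of HG or HG-Res was left out, 1.99% to 2.39% of the listed genes, where 0.148% to 0.42% of all genes passed. It was 27, or 10.8%, when replicate 3 of HG-Res-SIRT7-Inh was left out, where 6.23% of all genes passed, and 49, or 19.5%, when replicate 2 of HG was left out as well, where 21.2% of all genes did. The median log2 change was 0.18 over the 72 raised genes, 0.01 over the 179 lowered genes and 0.00 over all genes tested.

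**Figure D5:**
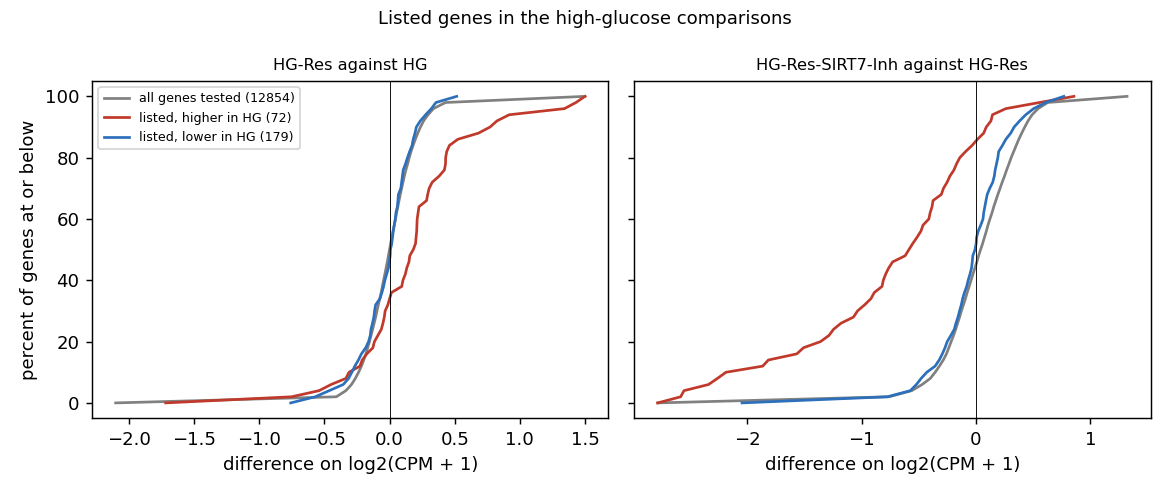
Cumulative percent of genes (vertical axis) at or below each difference on the log2(CPM + 1) scale (horizontal axis) for HG-Res against HG (left) and HG-Res-SIRT7-Inh against HG-Res (right); grey is all 12854 genes tested, red the 72 listed genes higher in HG and blue the 179 lower. On the right the red curve lies far to the left of the grey one, with medians of -0.59 and 0.04, while the blue curve, with a median of -0.01, runs beside the grey.

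Both genes with the largest further rise in HG-Res on the log2(CPM + 1) scale showed the same order of groups as ENSG00000116701, which rose by 1.33 ± 0.13 on that scale (SE, limma adjusted p = 0.00221). With a pseudocount of 0.1 the rise of ENSG00000116701, 1.55, was the largest of the 3, beside 1.53 for ENSG00000157601 and 1.52 for ENSG00000111335. ENSG00000157601 was at 15.65, 15.02 and 15.19 CPM in Ctrl, 24.55, 23.67 and 23.53 in HG, 67.31, 71.18 and 69.95 in HG-Res and 13.90, 13.16 and 11.29 in HG-Res-SIRT7-Inh. ENSG00000111335 was at 6.69, 7.4 and 6.59 CPM in Ctrl, 11.54, 11.34 and 12.05 in HG, 30.92, 34.34 and 35.38 in HG-Res and 4.57, 5.01 and 5.12 in HG-Res-SIRT7-Inh. In both genes no 2 groups overlapped, and the group with the inhibitor lay below Ctrl. Against HG they rose by 1.5 ± 0.10 and 1.45 ± 0.10 on the log2 scale (SE, limma adjusted p = 0.000276 for each). From HG-Res to HG-Res-SIRT7-Inh they fell by 2.36 ± 0.10 and 2.55 ± 0.10 (SE, limma adjusted p = 3.89e-06 and 3.21e-06). Both were chosen for a large rise in HG-Res, so these falls start from values used in that choice, which can enlarge them.

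Both raised genes with the largest fall in HG-Res fell again when the inhibitor was added. ENSG00000169429 was at 9.12, 9.16 and 8.70 CPM in Ctrl, 16.07, 15.26 and 16.62 in HG, 3.85, 3.67 and 5.05 in HG-Res and 1.5, 1.25 and 2.61 in HG-Res-SIRT7-Inh. Its level with resveratrol was below every Ctrl library, a change of -1.72 ± 0.17 from HG (SE, limma adjusted p = 0.00257). ENSG00000115461 was at 27.17, 24.46 and 24.61 CPM in Ctrl, 35.62, 38.53 and 36.10 in HG, 21.41, 21.91 and 21.53 in HG-Res and 4.23, 3.92 and 2.97 in HG-Res-SIRT7-Inh. It changed by -0.74 ± 0.12 in HG-Res (SE, limma adjusted p = 0.0238), a call lost when any 1 library of HG or HG-Res, or replicate 2 of HG-Res-SIRT7-Inh, was left out (highest adjusted p = 0.151 of 18 alternatives, lowest 3.81e-14). With the inhibitor ENSG00000169429 fell by a further 0.92 ± 0.17 and ENSG00000115461 by 2.27 ± 0.12 (SE, limma adjusted p = 0.0156 and 6.73e-06).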

How the data were processed

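Poly(A)-selected RNA was sequenced as paired-end reads, per the labels' protocols. Per the submitters' processing notes, Trimmomatic was used and the build was rn6; no aligner, counter, annotation or test is named (not given in the sources used here). The authors deposited 4 tables holding, for each gene, values headed TPM and the q-value, p-value and log2 fold change of 1 comparison. The deposited values behave as CPM: in each library 100% of low values lay within the rounding of 0.005 CPM of a whole multiple of 1 step, whatever the gene. The recovered reads are approximate and were used for depth, floors and sampling noise, not for a count test.

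Members, lists and rules were chosen with earlier results of these data known. Per comparison, up to 2 identifiers that rose and 2 that fell were printed, those with the largest change among listed genes past a q-value or adjusted p of 0.05, and followed through the other comparisons. Values as deposited, as log2(CPM + 1), went into 1 fit of the 3 high-glucose groups (limma 3.58.1, R 4.3.3, empirical Bayes, trend on intensity, Benjamini-Hochberg over 12854 genes, filter as in the report). Fold changes on this scale understate those of low genes, and p-values measure the spread between these libraries. The fit was tested on simulated data that held no outlying library, so that test does not cover the libraries that stood apart from their groups. Gene lists fixed by symbol, and rules that need names, were not used, since identifiers could not be matched. Replicate pairs differed by more than sampling noise: in the high-glucose groups the median chi-square over genes was 2.23 to 71.8 times that of sampling alone. Ctrl pairs gave 1.29 to 1.72 times, over listed genes alone. The mark favours close replicates in those genes, so the Ctrl range is not set against the other. Alternatives covered the pseudocount, filter, scaling, groups in the fit, a replicate block and leaving out libraries.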

Additional observations from a re-analysis of the deposited data

How the results depend on the processing

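The list of 354 genes became 178 at the authors' q-value under 0.05, 138 under 0.01, 124 at 2-fold or more and 219 at a higher-group mean of 1 CPM or more. Leaving out 1 HG or Ctrl replicate, 321 to 334 had a ratio of mean CPM over 1.5. Between HG-Res and HG the 10 listed genes became 5 to 27 without 1 library, where 0.148% to 6.23% of all genes passed. They became 23 with only those groups, 49 when replicate 2 of HG and replicate 3 of HG-Res-SIRT7-Inh were both left out, 35 by the authors' q-values and 5 at 2-fold. Under those 4 settings 4.64%, 21.2%, 5.38% and 0.171% of all genes passed, against 9.16%, 19.5%, 9.89% and 1.99% of the listed genes, so with both libraries left out the listed genes passed no more often than all genes. For the added inhibitor, the 57 listed genes became 36 with only those groups and 24 at 2-fold, where 3.22% and 1.03% of all genes passed. Without 1 library they were 26 to 71, where 2.15% to 13.8% of all genes passed. The 38 raised genes that fell became 29 with only HG-Res and HG-Res-SIRT7-Inh in the fit, 22 at 2-fold and 23 to 40 without 1 library. Of all genes, 2.47%, 0.926% and 1.77% to 7.33% fell under those settings.

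Replicate numbers pair nothing by the labels, and same-numbered libraries of HG and HG-Res deviated with correlations of 0.244, 0.143 and -0.271. With the replicate block, 6 and 50 listed genes passed in these comparisons, where 0.35% and 5.05% of all genes did. Under it ENSG00000115461 lost its call between HG-Res and HG (limma adjusted p = 0.0585). With the inhibitor, 36 raised genes fell under the block, where 3.73% of all genes fell. In 339 of the 354 listed genes all 3 same-numbered differences between HG and Ctrl had the marked direction. For the 331 genes without overlap of HG and Ctrl any pairing gives this, so nothing is read from that count. The ratio of mean CPM and the count by direction were added after seeing the data. Glucose was compared in the marked rows alone, and changes below about 3 reads per library could not be detected.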
